A study of Mus musculus with 40 samples.

Results

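The 9 genes followed here are 5 that encode the urea cycle and its activator (Nags, Cps1, Ass1, Asl and Arg1) and 4 that break down amino acids (Tat, Tdo2, Hpd and Gls2). They were taken by name out of 21938 protein-coding genes, and every ChIP-seq peak of the corepressors NCoR and SMRT and of the deacetylase HDAC3 was collected whose centre fell inside a member or within 50 kb of its ends. This gave 76 of 35138 NCoR peaks, 30 of 10654 SMRT peaks and 29 of 14462 HDAC3 peaks, and no peak fell in the windows of more than 1 member. NCoR was listed within 500 bp of the transcription start of 6 of the 9 genes, as for 18.0% of all coding genes. HDAC3 lay that close to 0 of the 9, and to 5.62% of all coding genes, so that a count of 0 is near the background. Sites that carried all 3 proteins were present in all 9 windows (39.2% of all coding genes) but lay 741 bp or more from the start of every member.

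The series holds 40 ChIP-seq samples in 18 groups, of which 9 samples underlie the 3 peak lists used here and 31, among them 7 input libraries, were not analysed here. The lists come from livers of male C57BL/6 mice that were fed ad libitum and carried Bcl6 fl/fl, a floxed allele of the repressor BCL6 with no Cre, so that they stood as wild type in the study. Each list pools 3 libraries, which the study's methods describe as 3 animals, and all 3 lists were called against the same input library. Whole liver was used, so hepatocytes and other liver cells contribute to 1 list.

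A list holds positions only, with no height, score or read count. The depth behind each peak is therefore unknown, nothing can be said about the spread between animals, and a protein that is missing from a list at a site may have been bound there below the calling threshold. The binomial intervals given below cover counting error only and treat peaks as independent, although neighbouring sites of 1 gene need not be. No test was run, and the shares among all peaks and all coding genes, including genes that liver does not express, are given as background.

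The urea cycle disposes of the ammonia that is released when amino acids are burnt, and it runs mainly in hepatocytes. Nags makes the N-acetylglutamate that Cps1 needs, Cps1 fixes ammonia in the mitochondrion, Ass1 and Asl build and split argininosuccinate, and Arg1 releases urea from arginine. Tat starts the breakdown of tyrosine and Hpd carries the step after it, Tdo2 opens tryptophan breakdown, and Gls2 is the liver glutaminase that frees ammonia from glutamine. NCoR and SMRT are related scaffold proteins that are brought to DNA by nuclear receptors without ligand or by repressors such as BCL6, and both can hold HDAC3, which removes acetyl groups from histones.

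A site is called shared where an NCoR centre had both a SMRT and an HDAC3 centre within 200 bp. The sequences of the shared sites closest to each member's own start, among the peaks for which that member was the nearest gene, are shown here because they are where the complete set of 3 proteins was listed. Asl and Tdo2 had no such site. Asl is shown by its only assigned NCoR peak, and that of Tdo2, which overlaps an untranslated region, is not shown. Each is the listed NCoR interval on mm10, plus strand, 5′ to 3′, and capitals mark matches on either strand to 10 short motifs that are given further on, 9 by their letters and DR1 by its name.
Nags, chr11:102146176-102146404, NCoR with SMRT and HDAC3: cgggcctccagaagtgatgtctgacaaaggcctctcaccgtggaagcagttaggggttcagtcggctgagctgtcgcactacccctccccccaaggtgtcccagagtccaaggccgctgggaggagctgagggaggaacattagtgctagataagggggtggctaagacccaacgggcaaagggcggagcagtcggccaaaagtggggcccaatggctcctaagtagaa
Cps1, chr1:67268034-67268262, NCoR with SMRT and HDAC3: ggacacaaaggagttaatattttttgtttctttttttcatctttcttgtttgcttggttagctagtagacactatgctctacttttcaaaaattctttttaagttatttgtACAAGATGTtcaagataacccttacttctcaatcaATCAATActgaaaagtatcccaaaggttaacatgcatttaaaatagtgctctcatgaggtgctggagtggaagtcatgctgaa
Ass1, chr2:31464704-31464932, NCoR with SMRT and HDAC3: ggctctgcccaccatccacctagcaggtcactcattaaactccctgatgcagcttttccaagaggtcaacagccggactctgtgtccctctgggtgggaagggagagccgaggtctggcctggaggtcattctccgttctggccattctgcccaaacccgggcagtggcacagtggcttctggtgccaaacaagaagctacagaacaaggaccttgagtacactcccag
Asl, chr5:130022435-130022663, NCoR alone: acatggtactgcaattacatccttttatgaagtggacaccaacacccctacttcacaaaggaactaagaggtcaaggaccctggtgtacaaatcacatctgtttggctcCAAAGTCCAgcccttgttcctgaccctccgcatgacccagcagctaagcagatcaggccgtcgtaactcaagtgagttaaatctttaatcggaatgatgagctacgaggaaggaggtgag
Arg1, chr10:24948484-24948712, NCoR with SMRT and HDAC3: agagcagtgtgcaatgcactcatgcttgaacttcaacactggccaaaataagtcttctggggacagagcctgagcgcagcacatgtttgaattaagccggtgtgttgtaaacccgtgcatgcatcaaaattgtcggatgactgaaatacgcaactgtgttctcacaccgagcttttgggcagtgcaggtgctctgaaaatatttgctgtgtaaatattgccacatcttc
Tat, chr8:109979477-109979705, NCoR with SMRT and HDAC3: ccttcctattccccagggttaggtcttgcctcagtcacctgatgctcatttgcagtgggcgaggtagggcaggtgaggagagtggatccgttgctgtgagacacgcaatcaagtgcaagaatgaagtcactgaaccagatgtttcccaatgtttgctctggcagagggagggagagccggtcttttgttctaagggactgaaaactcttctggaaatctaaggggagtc
Hpd, chr5:123187372-123187600, NCoR with SMRT and HDAC3: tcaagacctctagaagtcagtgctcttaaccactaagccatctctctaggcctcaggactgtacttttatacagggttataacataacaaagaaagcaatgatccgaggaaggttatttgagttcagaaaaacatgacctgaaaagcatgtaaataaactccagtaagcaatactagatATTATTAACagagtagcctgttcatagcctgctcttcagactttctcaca
Gls2, chr10:128201825-128202053, NCoR with SMRT and HDAC3: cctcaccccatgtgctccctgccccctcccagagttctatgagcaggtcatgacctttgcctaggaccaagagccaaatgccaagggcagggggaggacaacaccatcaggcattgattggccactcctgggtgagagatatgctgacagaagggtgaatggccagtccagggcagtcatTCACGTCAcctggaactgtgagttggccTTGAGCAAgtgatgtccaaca

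Intervals of this set had no motif match in common, and they were not aligned with each other. The Cps1 interval held an HNF6/CUX match and a glucocorticoid receptor core, the Hpd interval an HNF1 match, the Gls2 interval a CRE and a C/EBP match, and the Asl interval an HNF4 match. Those of Nags, Ass1, Arg1 and Tat matched none of the 10 motifs, which says only that these letters were not in these intervals.

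A further 3 intervals were chosen after their values were seen. The first and second carry NCoR with SMRT and without HDAC3 directly upstream of the Cps1 and Hpd starts. The third is the shared site closest to Tdo2, which the annotation places in an intron of the neighbouring gene Asic5. For Hpd only the bases before the transcription start are shown.
Cps1, chr1:67122754-67122982, NCoR with SMRT: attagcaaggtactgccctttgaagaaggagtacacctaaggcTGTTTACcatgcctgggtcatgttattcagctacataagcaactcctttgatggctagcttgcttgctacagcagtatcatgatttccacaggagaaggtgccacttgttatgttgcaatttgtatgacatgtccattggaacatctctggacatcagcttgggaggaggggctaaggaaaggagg
Hpd, chr5:123182728-123182952, NCoR with SMRT: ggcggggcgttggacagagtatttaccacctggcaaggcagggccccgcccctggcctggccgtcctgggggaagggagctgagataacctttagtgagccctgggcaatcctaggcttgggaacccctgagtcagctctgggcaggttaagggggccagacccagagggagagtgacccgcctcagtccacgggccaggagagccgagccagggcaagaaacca
Tdo2, chr3:81990530-81990758, NCoR with SMRT and HDAC3: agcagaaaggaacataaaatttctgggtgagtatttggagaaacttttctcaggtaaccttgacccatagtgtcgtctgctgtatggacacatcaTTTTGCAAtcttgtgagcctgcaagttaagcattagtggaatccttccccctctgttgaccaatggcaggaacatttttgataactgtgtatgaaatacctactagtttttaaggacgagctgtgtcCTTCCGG

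The Cps1 start-side interval held a FOX match, the Tdo2 interval a C/EBP and an ETS match, and the Hpd start-side interval held none.

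All 9 windows held peaks of each list, and each member had more NCoR peaks than the typical gene. Among all protein-coding genes, 72.3% had at least 1 NCoR peak in the same window, 43.1% at least 1 SMRT peak and 52.1% at least 1 HDAC3 peak. NCoR counts ran from 6 at Nags, Ass1 and Tdo2 to 12 at Asl and Hpd, with a median of 8 where the median of all coding genes was 2. SMRT counts ran from 2 to 5 with a median of 3, against 0 for all genes, and HDAC3 counts from 2 to 7 with a median of 3, against 1. The windows were of ordinary size, with a median of 116 kb for the members and 117 kb for all genes. Per 100 kb of window the members held from 3.99 NCoR peaks at Ass1 to 10.8 at Hpd, and the median gene held 1.76.

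Crowding was not extreme for most of them. Of all coding genes, 3.77% had at least as many NCoR peaks as Asl and Hpd, 7.31% as many as Cps1 and 10.1% as many as Arg1. The shares were 13.6% for Gls2, 18.3% for Tat and 23.9% for Nags, Ass1 and Tdo2. Asl and Hpd were the members above 11 peaks, the 95th percentile of all genes.

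**Figure D1:**
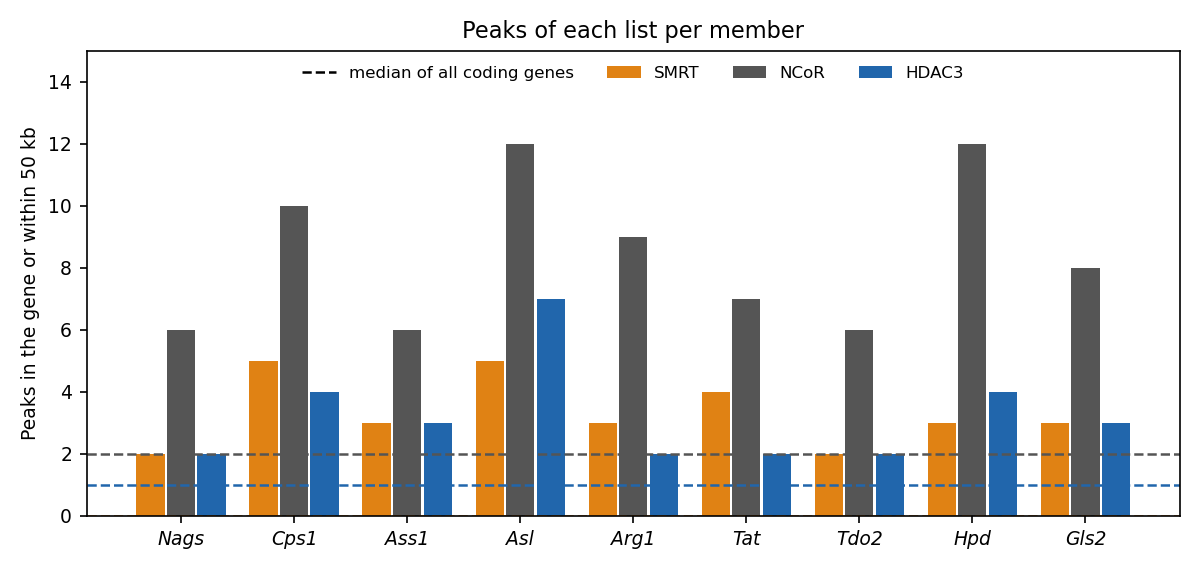
Bars give the number of SMRT (orange), NCoR (grey) and HDAC3 (blue) peaks in each gene or within 50 kb of it, one pooled list each and so without error bars, and dashed lines give the medians of all protein-coding genes (2 for NCoR, 1 for HDAC3, and 0 for SMRT on the axis). NCoR is the tallest bar at every member, from 6 to 12.

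A peak in a window need not belong to the gene, so each was given to the coding gene whose transcription start was closest. Of the 76 NCoR peaks, 42 went to the member itself and 34 to a neighbour, and no NCoR peak outside the windows was assigned to a member. All 9 members received at least 1 NCoR peak, as did 49.1% of all coding genes. Arg1 kept 9 of 9 peaks, Cps1 8 of 10, Hpd 7 of 12, Ass1 5 of 6, Tat 5 of 7, Gls2 4 of 8 and Nags 2 of 6. Asl kept 1 of 12 and Tdo2 1 of 6. Crcp, which starts beside Asl on the other strand, took 4 of the Asl peaks, each by a small margin. Asic5 took 5 of the Tdo2 peaks.

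Shared sites numbered 20 in the windows, and all 9 members had at least 1, against 39.2% of all coding genes. By nearest start, 10 of the 20 went to 7 members, whereas 20.9% of all coding genes were nearest to at least 1. Ass1, Arg1 and Hpd each held 2 such sites, and Cps1, Nags, Tat and Gls2 each held 1. The 4 shared sites around Asl and the 2 around Tdo2 were all nearer to the start of another gene. The margin was small for those at -2401, -4865 and -14686 bp from the Asl start. They lay at 2337, 4801 and 14622 bp from the Crcp start, so that distance hardly separates these 2 genes. These assignments rest on coding genes. When the starts of non-coding genes were also counted, 24 NCoR peaks and 3 shared sites stayed with a member, and 2 members still had a shared site.

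**Figure D2:**
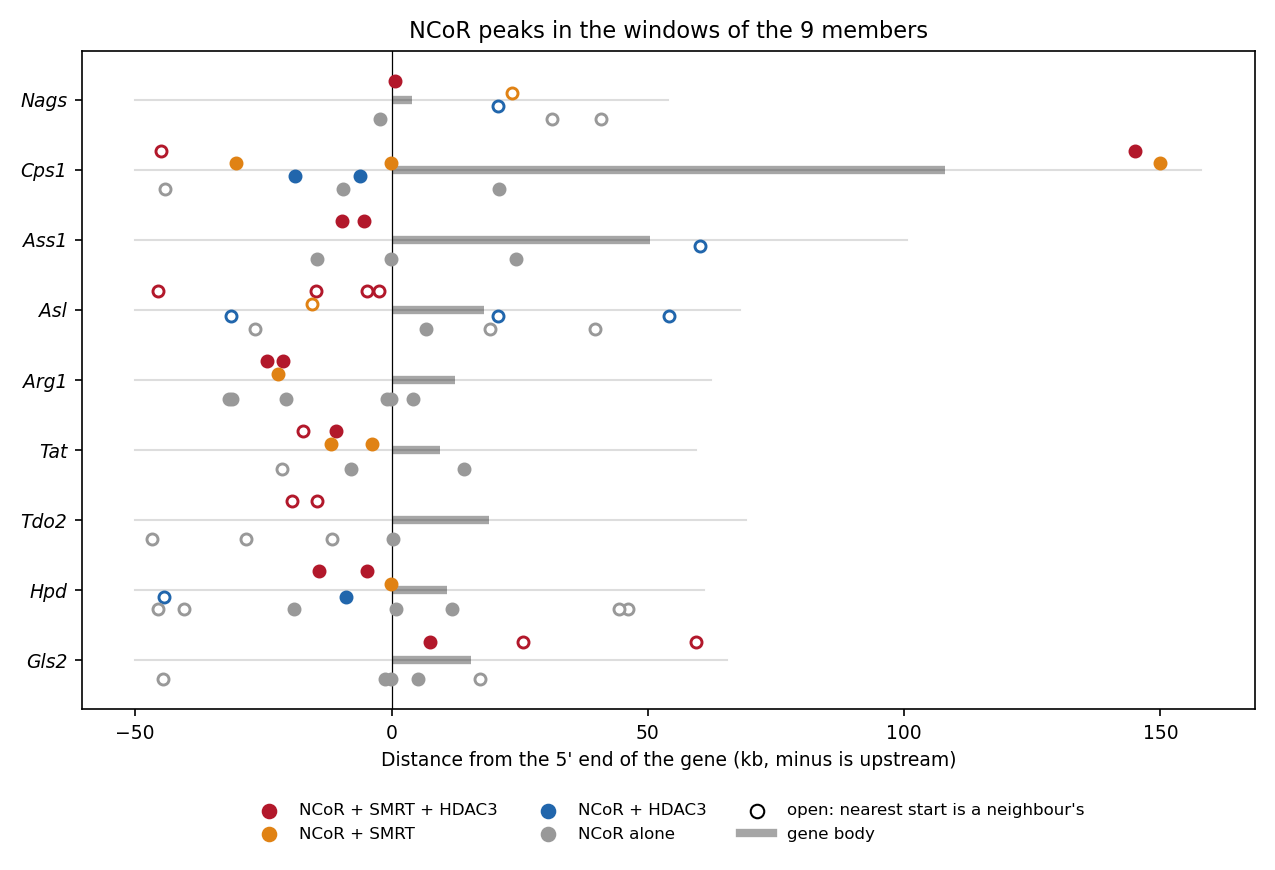
Each circle is an NCoR peak, placed by the distance of its centre from the 5′ end of the gene in kb (minus is upstream) and coloured by partner, with a separate height for each class. Filled circles were nearest to the member's own start, open ones to a neighbour's, thin lines show the window and thick bars the gene. Most filled circles of Arg1, Tat, Cps1 and Hpd lie to the left of the start, and the red circle nearest to a start is that of Nags.

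Around the starts themselves NCoR was the protein most often listed. Of the 9 members, 6 had an NCoR centre within 500 bp of a start of their own, as did 18.0% of all coding genes, and 0 had a shared site that close, compared with 2.29% of all coding genes. SMRT was within 500 bp at 2 members, Cps1 and Hpd, against 2.82% of all coding genes, and HDAC3 at 0, against 5.62%. The lists differ in length, with 14462 HDAC3 and 35138 NCoR peaks, and counts of 0 among 9 genes are near these background shares. The median distance to the closest NCoR peak was 158 bp over the members and 18428 bp over all coding genes. For the closest SMRT peak these medians were 3883 and 87644.5 bp, for HDAC3 6289 and 60550.5 bp.

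The 6 start-side NCoR peaks comprised 2 with SMRT and 4 alone, and none had an HDAC3 partner. Among the 3830 NCoR peaks within 500 bp of any coding start, 27.8% had an HDAC3 partner and 2.32% had SMRT without HDAC3. Farther than 500 bp from the member's start, 13 of the 36 assigned NCoR peaks had an HDAC3 partner. No share was computed for all NCoR peaks that far from a start. Over all NCoR peaks at any distance, 24.9% were shared and 14.8% had HDAC3 only. With 6 peaks, a count of 0 with HDAC3 at the starts is not far from the background of 27.8%. These counts describe the members and carry no test.

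**Figure D3:**
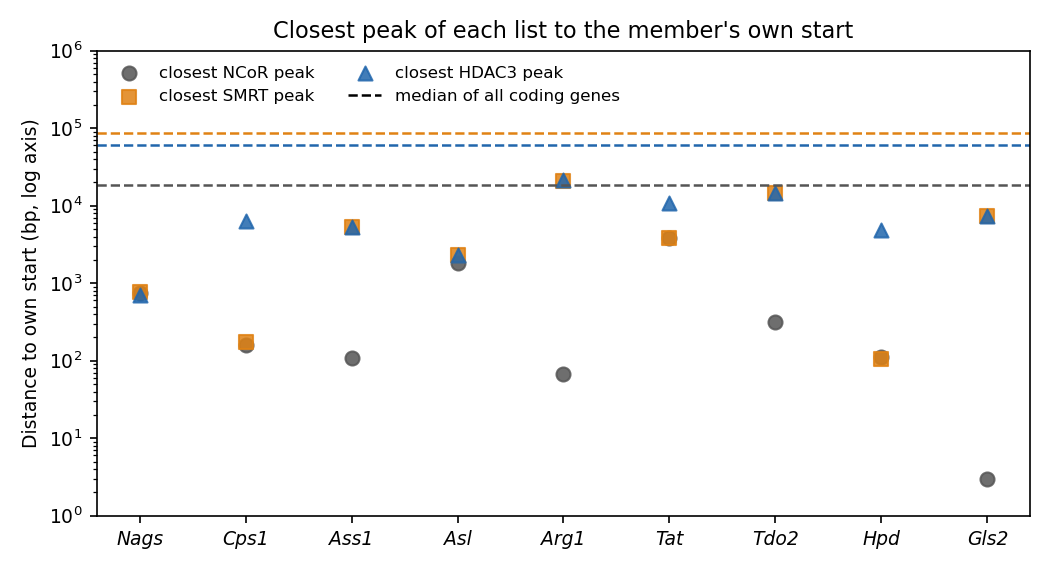
Points give the distance from each member's own start to the closest NCoR (circles), SMRT (squares) and HDAC3 (triangles) peak centre in bp on a log axis, and dashed lines the medians of all coding genes. NCoR lies between 3 and 3889 bp away at every member, HDAC3 between 701 and 21164 bp.

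Nags (chr11:102145513-102149477, plus strand) encodes the enzyme that supplies the activator of Cps1, and it was the member with a shared site nearest to its start. That site was centred inside the gene, 741 bp from the start of its transcript in the basic annotation and 777 bp from the outermost end of the gene (minus marks upstream positions here and below), where the annotation also places the promoter of the antisense transcript Gm11586. The closest SMRT centre lay at 767 and the closest HDAC3 centre at 701 bp. The only other NCoR peak assigned to Nags lay at -2337 bp, had no partner and held a BCL6/STAT match. The remaining 4 peaks of the window lay beyond 20 kb downstream, and 2 of them were assigned to Lsm12.

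Cps1 (chr1:67123026-67231259, plus strand) encodes carbamoyl phosphate synthetase, and all 4 partner classes occurred among its assigned peaks, as they did at Hpd. At -158 bp, in its promoter, NCoR was listed with SMRT and without HDAC3. Farther upstream came NCoR with HDAC3 at -6244, NCoR alone at -9486, NCoR with HDAC3 at -18871 and NCoR with SMRT at -30374 bp. Inside the gene only 1 NCoR peak was listed, alone, in an intron at 20951 bp. Its assigned shared site lay beyond the gene's end, at 145122 bp from the start in an intron of the non-coding gene Gm15668, and NCoR with SMRT followed at 149827 bp. The other shared site of the window, at -45061 bp, was nearer to Lancl1. The 3 NCoR peaks of this gene with SMRT and no HDAC3 were the most of any member.

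Ass1 (chr2:31470207-31520672, plus strand) encodes argininosuccinate synthase. NCoR alone lay in its promoter at -107 bp, and again at -14549 and, in an intron, at 24321 bp. Both of its shared sites were upstream, at -5389 bp between genes and at -9674 bp in the 3′ UTR of the neighbouring gene Hmcn2. The window also held the single SMRT peak of the 30 that had neither NCoR nor HDAC3 within 200 bp (chr2:31521829-31522041), whose nearest start was that of Fubp3.

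Asl (chr5:130011258-130029247, minus strand) encodes argininosuccinate lyase. It had 12 NCoR peaks and 4 shared sites in its window, of which 1 NCoR peak was assigned to it. This peak, without partners, lay in an intron at 1832 bp from the nearest of its 3 annotated starts and 6698 bp from the outermost one. The shared sites at -2401, -4865 and -14686 bp lay in introns of Crcp, and the fourth, at -45471 bp, in Tpst1. Asl thus had the most HDAC3 peaks of any member in its window, 7, without an HDAC3 peak assigned to it. The Crcp start was nearer only by a small margin to the shared sites at -2401, -4865 and -14686 bp.

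Arg1 (chr10:24915221-24927484, minus strand), the last enzyme of the cycle, was the member with the most assigned NCoR peaks. NCoR alone was listed at -68 and -923 bp, both in its promoter, and at 4280 bp in an intron. No SMRT or HDAC3 centre lay between these and a group of 6 NCoR peaks far upstream, from -20540 to -31655 bp, within 11.1 kb of sequence. That group held both shared sites, at -21114 and -24280 bp, NCoR with SMRT at -22086 bp, and 3 peaks without partners. The promoter region at -68 bp also belongs to the non-coding gene Gm36172, so that this peak cannot be given to 1 of the 2 starts.

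Tat (chr8:109990437-109999803, plus strand) encodes tyrosine aminotransferase, a classical fasting and glucocorticoid-responsive enzyme. It was the only member with no NCoR peak inside the gene, and its closest peak, NCoR with SMRT at -3889 bp, was the farthest from a start among the 9. The other upstream peaks were NCoR alone at -7850, a shared site at -10846 and NCoR with SMRT at -11766 bp. On the downstream side NCoR alone lay at 14102 bp and held a glucocorticoid receptor core match. A second shared site, at -17360 bp, was nearer to Marveld3.

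Tdo2 (chr3:81957090-81976202, minus strand) encodes tryptophan dioxygenase. Its only assigned peak was NCoR alone at 319 bp, which GENCODE places in the 5′ UTR and which held a glucocorticoid receptor core match. RefSeq puts the Tdo2 start 474 bp farther downstream, and measured from there the same peak lies at -155 bp, in the promoter. The shared sites of the window lay at -14442 and -19365 bp in introns of Asic5, and the closest SMRT and HDAC3 centres, at -14446 and -14458 bp, belonged to the first of them.

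Hpd (chr5:123171807-123182727, minus strand) encodes hydroxyphenylpyruvate dioxygenase. Like Cps1 it had NCoR with SMRT and no HDAC3 directly upstream of its start, at -111 bp. Behind this peak lay a shared site at -4759, NCoR with HDAC3 at -8900, a second shared site at -14225 and NCoR alone at -18981 bp. NCoR alone was also listed at 960 bp in an intron and at 11869 bp, past the gene's end. Of the 5 peaks that went to neighbours, 3 were nearest to Psmd9, whose annotated bounds and those of the non-coding gene Gm26745 cover this stretch.

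Gls2 (chr10:128194457-128210004, plus strand) encodes glutaminase. NCoR alone was centred at -3 bp, the closest of all to a start, and again at -1220 and, in an intron, at 5176 bp. A shared site lay in an intron at 7482 bp, so that Gls2 and Nags were the members whose assigned shared site was inside the gene. Of the other shared sites, the one at 25707 bp lay between genes and the one at 59495 bp in the promoter of Apon.

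Over the windows, shared sites, NCoR alone and NCoR with HDAC3 only were close to their usual proportions. NCoR with SMRT only was listed more often, a comparison added after the data were seen. Shared sites made up 20 of 76 NCoR peaks, or 26.3% (exact 95% interval 16.9 to 37.7%), and 24.9% of all NCoR peaks. NCoR alone made up 38 (38.3 to 61.7%), against 56.1%, and NCoR with HDAC3 only 9, or 11.8% (5.56 to 21.3%), against 14.8%. NCoR with SMRT only also numbered 9, or 11.8% (5.56 to 21.3%), against 4.16% of all NCoR peaks. Among the 42 peaks assigned to members it was 7, or 16.7% (6.97 to 31.4%). These 7 sat at Cps1 (3), Tat (2), Arg1 (1) and Hpd (1). Without the Cps1 window the share in the windows was 6 of 66, or 9.09%. No interval was computed for that smaller count, so whether the difference holds without Cps1 was not tested. Seen from the SMRT list, the same 9 pairs made up 9 of 30 SMRT peaks, or 30.0% (14.7 to 49.4%). The share over all SMRT peaks was 13.8%, and this count is not a separate observation.

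A partner lay within 200 bp by definition, and inside that limit the listed centres sat close together. The 29 NCoR and SMRT pairs of the windows lay a median of 28 bp apart and at most 102 bp, and the 29 NCoR and HDAC3 pairs a median of 30 bp and at most 76 bp. Over all such pairs of the lists the medians were 24 and 23 bp.

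The assigned peaks lay mostly upstream. Of the 42, 29 were upstream of the start, or 69.0% (52.9 to 82.4%), compared with 43.2% of all NCoR peaks relative to their own nearest start. Arg1 contributed 8 of the 29, and without Arg1 the share was 63.6%. With the starts of non-coding genes also counted, 15 of 24 peaks were upstream, or 62.5%, against 45.6% of all NCoR peaks. No interval was computed for that count. Introns of any annotated gene held 14 of the 42, or 33.3% (19.6 to 49.5%), against 52.0% of all NCoR peaks. Promoters, taken from 1000 bp upstream to 100 bp downstream of a start of any annotated gene, held 12 of the 76 peaks in the windows, or 15.8%, and 12.8% of all NCoR peaks. Inside the gene bodies of the members themselves there were 9 NCoR, 2 SMRT and 2 HDAC3 peaks, and the SMRT and HDAC3 peaks were those of the shared sites in Nags and Gls2.

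**Figure D4:**
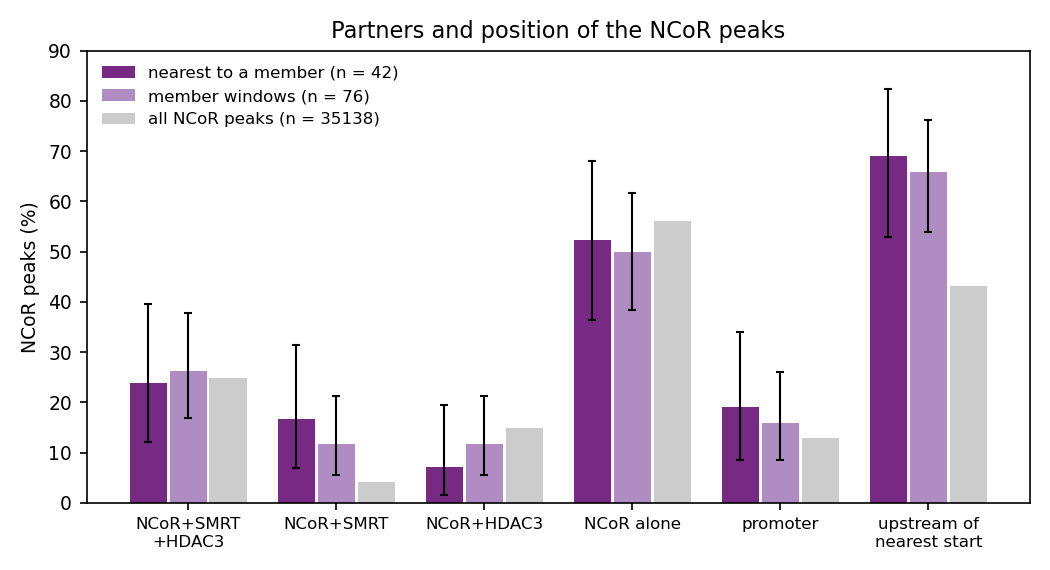
Bars give the percentage of NCoR peaks in each partner class, in promoters and upstream of the nearest start, for the 42 assigned to a member, the 76 in the windows and all 35138, and error bars are exact 95% binomial intervals. NCoR with SMRT and the upstream position are the groups of bars in which the grey background lies below the intervals, at 4.16% and 43.2%. Both comparisons were added after the data were seen, and the intervals are not a test.

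The 200 bp around the centres of the 42 assigned peaks were searched on both strands for 10 motifs, several of which can overlap in the same bases. C/EBP (TTNNGCAA), the motif of the C/EBP factors that drive many amino acid enzymes in liver, matched in 9 peaks, or 21.4% (10.3 to 36.8%), and in 19.1% of all NCoR peaks. FOX (TGTTTAC) matched in 5, against 7.74% of all NCoR peaks. HNF6/CUX (TATNGAT) and the glucocorticoid receptor core (ACANNNTGT) matched in 4 each, against 8.44% and 7.50%. The BCL6/STAT motif (TTCNNNGAA) matched in 2, or 4.76% (0.582 to 16.2%), against 7.10%. HNF4 (CAAAGTCCA), CRE (TGACGTNA), HNF1 (GTTAATNAT) and ETS (CCGGAAG) matched in 1 peak each, against 2.09%, 1.14%, 1.64% and 2.32%, and DR1, the site of nuclear receptor pairs, in 0, against 1.54%.

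For all 10 motifs the background share lay inside the exact interval of the members' share, and 25 of the 42 peaks held at least 1 match, or 59.5% (43.3 to 74.4%), against 46.4% of all NCoR peaks. The 9 peaks with a C/EBP match comprised 1 shared site, at Hpd, 2 with SMRT, 2 with HDAC3 and 4 with NCoR alone. The C/EBP match marked in the printed Gls2 interval is not counted, because the interval is longer than the 200 bp searched here. Of the 9 members, 5 had an entry in the RefSeq promoter table of this assembly (Nags, Ass1, Tat, Tdo2 and Hpd), and the only match in those promoters was the glucocorticoid receptor core at Tdo2, a motif present in 6.85% of all promoters of that table. Base composition was ordinary, with a median of 47.8% G or C in the assigned peaks and 48.0% in all NCoR peaks.

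The rest of the pathway was looked up in the same way. Of 67 further genes of nitrogen disposal, amino acid breakdown and amino acid transport, all 67 had NCoR in the window (72.3% of all coding genes), with a median of 7 peaks, and 52 had a shared site there, or 77.6%, against 39.2% of all coding genes. By nearest start, 64 received NCoR and 44 a shared site, or 65.7%, where the shares of all coding genes were 49.1% and 20.9%. NCoR lay within 500 bp of the start of 40 genes, or 59.7%, against 18.0%, and a shared site of 12, or 17.9%, against 2.29%. The most shared sites were assigned to Bhmt, which remethylates homocysteine, and Gldc, of the glycine cleavage system, with 5 each, and 5 genes had 4 each, of which Aass, the lysine-degrading synthase, comes first by symbol. At Bhmt and Aass a shared site lay at the start itself, at 138 and -146 bp, which was not seen at any of the 9 members. No gene of the list lacked a peak.

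Among the subgroups, NCoR within 500 bp of the start was listed for 6 of 6 genes of phenylalanine and tyrosine breakdown, 3 of 3 of lysine, 5 of 6 of tryptophan, 4 of 5 transporters, 6 of 8 of the sulphur amino acids, 7 of 11 of the urea cycle and its carriers, 4 of 8 of serine, glycine and threonine, 2 of 4 of histidine, 1 of 4 of proline and ornithine and 2 of 12 of the branched chain amino acids. Among all coding genes this share was 18.0%. A shared site was assigned to 8 of 8 sulphur amino acid genes, 4 of 4 of histidine, 5 of 6 of tryptophan and 6 of 8 of serine, glycine and threonine. The counts were 2 of 3 for lysine, 3 of 5 for transporters, 7 of 12 for branched chain amino acids and 2 of 4 for proline and ornithine. They were 5 of 11 for the urea cycle and its carriers and 2 of 6 for phenylalanine and tyrosine, against 20.9% of all coding genes. Differences between these small groups were not tested. Otc, the urea cycle enzyme between Cps1 and Ass1 and named after its values were seen, had NCoR at -46 bp, 3 NCoR peaks, 1 HDAC3 peak and 0 SMRT peaks in its window, and the closest shared site was 462537 bp away.

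Marker genes of liver cell types, with neuron and muscle genes beside them, were looked up in the same way. With so few genes per group, these counts cannot identify the tissue. All 7 hepatocyte markers, among them Alb and Ttr, had NCoR in the window, 6 of them within 500 bp of the start, and 6 had a shared site in the window. The shares of all coding genes were 72.3%, 18.0% and 39.2%. Of the Kupffer cell markers 1 of 4 had NCoR in the window and 0 had a shared site. NCoR was listed in the windows of 3 of 3 markers of sinusoidal endothelium, 3 of 3 of stellate cells and 2 of 3 of cholangiocytes, with a shared site in 2, 0 and 0, and in 4 of 6 neuron and muscle genes, with a shared site in 2. Outside the hepatocyte markers, NCoR lay within 500 bp of the start of 1 endothelial marker and of none in the other groups. By nearest start, the cholangiocyte marker Sox9 received 36 NCoR peaks and 12 shared sites, more than any hepatocyte marker, although its window held 7 and 0. The hepatocyte markers held a median of 9 NCoR peaks per window, beside 8 for the 9 members. The part that expression in liver plays in these counts was not tested.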

How the data were processed

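ChIP-seq peak positions for SMRT, NCoR and HDAC3 in fed wild-type liver were used as deposited. The authors aligned single-end reads to mm10 with Bowtie, keeping uniquely mapped reads and 1 read per position, and called peaks with HOMER on the pooled libraries of each protein against input. They then kept peaks that passed their enrichment test over input across the individual libraries. The deposited columns in use are the start and end in bp, a fixed interval per list (212 bp for SMRT and HDAC3, 228 bp for NCoR, as end minus start), with no score.

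Centres were compared with GENCODE vM21 basic genes on 21 chromosomes, which share the GRCm38 coordinates of mm10, and sequences were read from the RefSeq copy of that assembly with pysam 0.24.0. Each peak was given to the nearest start of a protein-coding gene, ties by symbol, and classed by partner centres within 200 bp. Intervals are exact binomial at 95%. All 9 members are named, with the neighbour that took most peaks of a window, and the first 3 genes of the pathway list by assigned shared sites, ties by symbol. The members, lists and motifs were chosen with earlier results of these data known. Windows, start sets, distances and motif widths were varied. The scripts were tested on simulated peaks. Python 3.11.15 with pandas 2.3.3 and scipy 1.17.1 was used.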

Additional observations from a re-analysis of the deposited data

How the results depend on the processing

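Of 55 alternative values computed, 43 stayed within 1.5 times the main count or inside its exact interval and 12 moved. This rule compares each value with the main one and says nothing about its distance from the background share. With the gene body alone as window, the counts fell to 2 SMRT, 9 NCoR and 2 HDAC3 peaks, and with 20 kb the NCoR count was 48. Counting the starts of non-coding genes left 24 NCoR peaks and 3 shared sites nearest to a member, and 2 members with a shared site, since nearby non-coding starts took the rest. Promoters of 5000 bp on either side held 39.5% of the NCoR peaks in the windows. In windows of 100 bp, 12 of the assigned peaks held a motif, as fewer bases were searched, and among single motifs FOX went to 3, C/EBP to 4 and the glucocorticoid receptor core to 2 peaks. Partner distances of 100 and 400 bp, the outermost start of each gene, removal of repeat-masked bases and leaving out Asl (tied with Hpd for most NCoR peaks) moved none of the results they were applied to. The count of members with NCoR near their own start, which was 5 at 250 and 7 at 1000 bp, the shares of NCoR with SMRT and the upstream shares were added after the data were seen. No paired analysis was possible because positions were called after pooling the libraries of a protein. For the same reason no library could be left out, and a stricter peak score could not be tried because the lists hold none.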
